A study of Oryza sativa with 14 samples.

Results

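BC1L6, BC1L9, GLU11 and GLU15 are 4 rice genes named for proteins of the cell wall, out of 17905 genes that the array measured and that could be named. BC1L6 and BC1L9 (LOC4343844 and LOC4349011) are named for their likeness to Brittle Culm 1. GLU11 and GLU15 (LOC4346968 and LOC4345463) are named as endo-1,4-β-glucanases. All 4 were found by symbol or synonym in the annotation, and each is represented by its probe set with the highest mean over the arrays. BC1L6, BC1L9 and GLU11 were chosen by their measured differences between the unstable transgenic line and Nipponbare, and GLU15 with results of these arrays in view, so their values in every comparison that uses Nipponbare seedlings are given as a description without a test.

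COBRA-like proteins are extracellular proteins, mostly held at the plasma membrane by a lipid anchor, that are needed for the orderly deposition of cellulose microfibrils. Their best-known rice member is Brittle Culm 1 (BC1), whose loss leaves stems that snap because the secondary walls hold less cellulose. Plant endo-1,4-β-glucanases of glycoside hydrolase family 9 cut β-glucan chains. Some are membrane-anchored and take part in cellulose synthesis, as Arabidopsis KORRIGAN does, and others are secreted and act on the wall of growing or shedding organs. No specific role is assigned here to BC1L6, BC1L9, GLU11 or GLU15 beyond the family that their names give.

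RNA levels came from 14 arrays, Affymetrix's GeneChip for the rice genome, each hybridised with a pool of 6 whole japonica rice seedlings, 2 pools in each of 7 groups. The study asked how far the transcriptomes of lines made by irradiation and by transformation depart from those of unmodified seedlings. The stable transgenic line (cv. Bengal), selfed to the third generation after transformation, makes the antibody fragment ScFvT84.66 against carcinoembryonic antigen, and unmodified Bengal was its control. The stable mutant (cv. Estrela A) came from gamma irradiation, had been selfed for over 10 generations and matured about 45 cm shorter than unmodified Estrela A, its control. The unstable transgenic line (cv. Nipponbare) was a T1 generation from Agrobacterium with 1 copy of BCBF1 behind the Arabidopsis AtRD29A promoter and 1 copy of the hygromycin resistance gene hpt II. The unstable mutant (cv. Nipponbare) was an M1 generation after 100 Gy of gamma rays, chosen because it looked most like the unirradiated plants, and unmodified Nipponbare was the control of both unstable lines. Each modified group is 1 line. All seedlings were frozen at 12 days, having germinated in darkness for 2 days and then grown for 10 days with a photoperiod of 12 h, at 28 °C throughout. Seeds of both transgenic lines germinated with 30 mg/L hygromycin B and no others did, so transgene and antibiotic cannot be told apart.

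Values are log2 expression, and a difference of 1 on this scale is a 2-fold difference. Array medians lay between 5.83 and 5.89, and replicate arrays correlated at 0.9929 to 0.9968 over all probe sets. Levels of different probe sets are not set against each other. Of the organ markers, the 5 leaf markers on the array were at 10.12 or above in every group. The lowest of the 9 root markers was at 4.03 to 5.52, below the array medians, and signal over background was not tested. The arrays labelled unstable mutant stood apart from their cultivar label. They correlated at 0.9708 to 0.9784 with the Nipponbare control arrays and at 0.9721 to 0.9741 with the Bengal control arrays. The unstable transgenic arrays correlated at 0.9809 to 0.9904 with the Nipponbare controls. Between cultivars, the Nipponbare controls correlated at 0.962 to 0.9675 with the Bengal controls and at 0.9594 to 0.9665 with the Estrela A controls. The unstable mutant arrays were thus nearer to Nipponbare than the Bengal and Estrela A control arrays were. Of 1008 probe sets at least 2-fold higher in Nipponbare than in both other cultivars and past the limma test, 556 (55.2%) were nearer to the other cultivars in the library labelled unstable mutant, against 72 (7.14%) in the unstable transgenic line. Of 835 lower in Nipponbare, the counts were 672 (80.5%) and 115 (13.8%). Every comparison with the unstable mutant below rests on these arrays, and in them irradiation and a difference in cultivar background cannot be told apart. Because whole seedlings were extracted, fewer cells of a type and less RNA per cell cannot be told apart either.

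In the unstable transgenic line, BC1L6, BC1L9 and GLU11 were all above every Nipponbare control array, and GLU15 was not. This is the comparison in which BC1L6, BC1L9 and GLU11 were picked. Over all genes, 34.0% had both unstable transgenic arrays above both controls, so the count of 3 of 4 is read only as the choice of genes. BC1L6 was at 8.51 and 7.87 in the unstable transgenic line, against 6.42 and 6.34 in Nipponbare, a mean difference of 1.81 (SE 0.199, 3.51-fold). The groups do not overlap, and the lower transgenic pool still lay more than 2-fold above the higher control pool.

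BC1L9 had the widest difference of the 4 in this line. Its level was 11.12 and 10.43 in the unstable transgenic line, against 8.15 and 7.89 in Nipponbare, a difference of 2.76 (SE 0.421, 6.75-fold). A second probe set of BC1L9 gave 9.12 and 8.26 in the transgenic line, against 5.87 and 6.21 in the controls. Both probe sets thus put the transgenic arrays clear of the controls, and their levels over the 14 arrays correlated at r = 0.983 (Spearman's rho 0.965).

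GLU11 was at 10.09 and 10.04 in the unstable transgenic line, against 8.80 and 8.82 in Nipponbare. The difference was 1.25 (SE 0.121, 2.39-fold), and the replicates of each group lay close together. GLU15 was at 8.34 and 8.28 in the unstable transgenic line, against 8.43 and 8.16 in Nipponbare. Its groups overlap and its difference was 0.02 (SE 0.125). Of the endoglucanase genes, GLU11 was thus higher than in its control and GLU15 was at the control's level within the spread of the arrays.

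**Figure D1:**
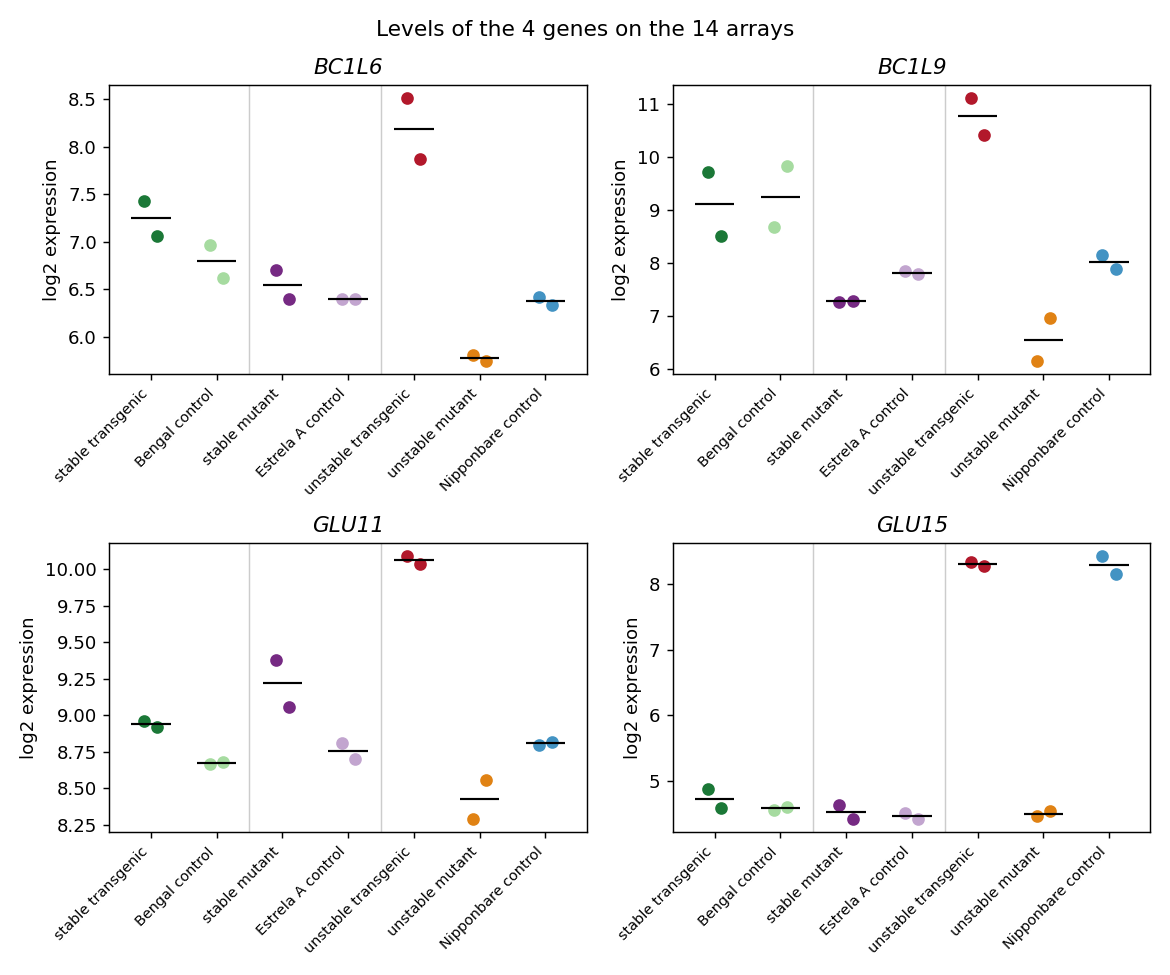
Log2 expression (y axis) of BC1L6, BC1L9, GLU11 and GLU15 on each of the 14 arrays, by group (x axis); points are single arrays, horizontal lines are group means, and vertical lines part the cultivars Bengal, Estrela A and Nipponbare. BC1L6, BC1L9 and GLU11 are highest in the unstable transgenic line, and GLU15 stands above 8 in the unstable transgenic line and the Nipponbare control and below 5 in every other group.

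In the library labelled unstable mutant, all 4 genes lay below every Nipponbare control array. Over all genes, 35.5% did so. GLU15 showed the widest gap, at 4.46 and 4.54 in the unstable mutant against 8.43 and 8.16 in Nipponbare, a difference of -3.80 (SE 0.125), or 13.9-fold lower. That is the level GLU15 had in all Bengal and Estrela A groups. BC1L9 was at 6.16 and 6.96 in the unstable mutant, against 8.15 and 7.89 in Nipponbare, a difference of -1.46 (SE 0.421, 2.75-fold lower). On its second probe set the difference was -0.70 (1.63-fold lower), with 5.08 and 5.59 in the unstable mutant against 5.87 and 6.21 in Nipponbare. The size of the BC1L9 difference thus depends on the probe set, and its direction does not.

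BC1L6 was at 5.81 and 5.75 in the unstable mutant, against 6.42 and 6.34 in Nipponbare, a difference of -0.60 (SE 0.199, 1.52-fold lower). These 2 arrays hold the lowest BC1L6 levels of the series. GLU11 was at 8.29 and 8.56 in the unstable mutant, against 8.80 and 8.82 in Nipponbare, a difference of -0.38 (SE 0.121, 1.31-fold lower). Both unstable lines share the Nipponbare controls, so their differences are not independent of each other.

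Set directly against the unstable transgenic line, the unstable mutant was lower in all 4 genes, as were 41.4% of all genes by the same count of non-overlapping arrays. The difference was -4.22 for BC1L9 (18.6-fold lower), and -3.36 on its second probe set. It was -3.81 for GLU15, -2.41 for BC1L6 (5.31-fold lower) and -1.64 for GLU11 (3.12-fold lower). These differences contain the unstable transgenic arrays on which BC1L6, BC1L9 and GLU11 were picked.

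**Figure D2:**
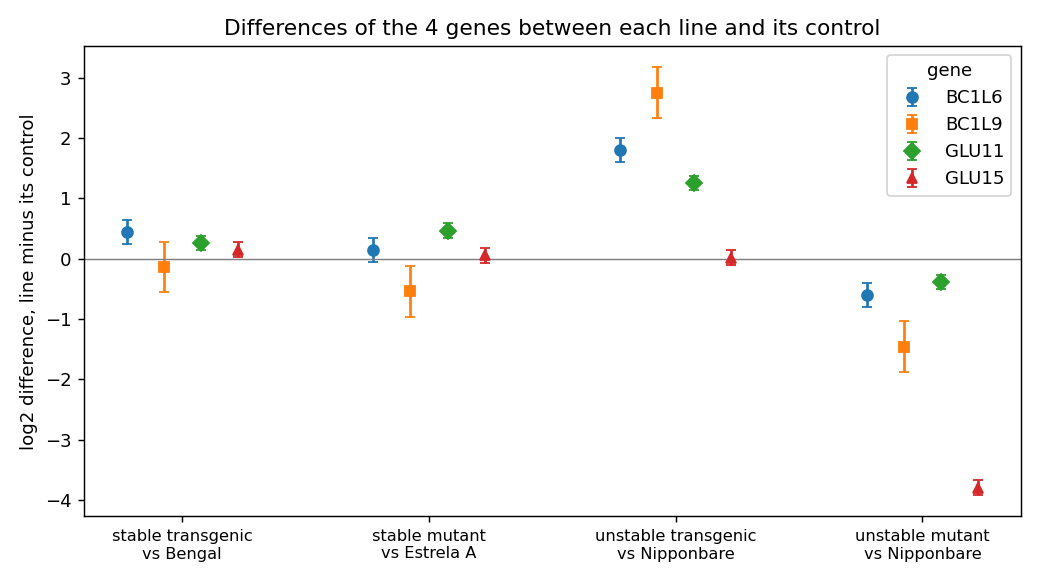
Log2 difference of each modified line from its own control (y axis) for the 4 genes, with bars of 1 standard error from the fit over all arrays, 2 arrays a group. In both Bengal and Estrela A lines the points lie between -0.54 and 0.46, against 2.76 for BC1L9 in the unstable transgenic line and -3.80 for GLU15 in the unstable mutant.

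The Bengal and Estrela A arrays were not used to pick the genes in the unstable transgenic line, and there the differences of the 4 genes were tested. In the stable transgenic line, none of the 4 passed a Benjamini-Hochberg adjusted p of 0.05 in limma, and 2 had an unadjusted p under 0.05. Over all genes, 0.212% passed the adjusted test. The share of all genes with an unadjusted p under 0.05 is not given, so the count of 2 is not read further. BC1L6 was at 7.43 and 7.06 in the stable transgenic line, against 6.97 and 6.62 in Bengal. Its arrays did not overlap and its difference was 0.45 (SE 0.199, 95% interval 0.015 to 0.88, limma adjusted p = 0.676). GLU11 was at 8.96 and 8.92 in the stable transgenic line, against 8.67 and 8.68 in Bengal, a difference of 0.26 (95% interval 0.001 to 0.53, limma adjusted p = 0.689). These were the 2 genes of the 4 whose transgenic arrays lay wholly above the controls, which 18.9% of all genes did.

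BC1L9 was at 9.73 and 8.52 in the stable transgenic line, against 8.69 and 9.83 in Bengal. Replicates of both groups were over 1 log2 unit apart, on the second probe set too, and the difference was -0.14 (95% interval -1.06 to 0.79, limma adjusted p = 0.988). It turned to 0.47 without stable transgenic replicate 2 and to 0.44 without Bengal replicate 2. Markers of the grain, 11 of 12 on the array, also varied between these pools, with log2 summed levels of 13.55 and 12.85 in the stable transgenic line and 13.58 and 12.01 in Bengal. The pool with the higher sum had the higher BC1L9 level in the stable transgenic line and the lower BC1L9 level in Bengal. The part of the grain markers in the BC1L9 values was not tested. GLU15 was at 4.87 and 4.59 in the stable transgenic line, against 4.56 and 4.60 in Bengal, with overlapping groups and a difference of 0.15 (95% interval -0.12 to 0.42, limma adjusted p = 0.907).

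In the stable mutant, none of the 4 genes passed the limma test either, and 1 had an unadjusted p under 0.05. Over all genes, 0.19% passed the adjusted test, and the share at the unadjusted threshold is not given. The gene with an unadjusted p under 0.05 was GLU11, at 9.38 and 9.06 in the stable mutant against 8.81 and 8.70 in Estrela A. Both mutant arrays lay above both controls, with a difference of 0.46 (SE 0.121, 1.38-fold, 95% interval 0.20 to 0.73, limma adjusted p = 0.349). BC1L9 was at 7.27 and 7.29 in the stable mutant, against 7.85 and 7.79 in Estrela A, and its arrays lay wholly below the controls. Its difference of -0.54 had a 95% interval of -1.46 to 0.38 (limma adjusted p = 0.891). This interval uses 1 moderated spread of BC1L9, pooled over all 7 groups. As a description of that spread, the mean within-group SD was 0.423, wider than in the stable mutant (SD 0.014) and Estrela A (SD 0.042). Over all genes, 44.9% had arrays that did not overlap in this comparison.

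BC1L6 was at 6.70 and 6.40 in the stable mutant, against 6.40 on both Estrela A arrays, a difference of 0.15 (95% interval -0.28 to 0.58, limma adjusted p = 0.950). GLU15 was at 4.63 and 4.42 in the stable mutant, against 4.51 and 4.42 in Estrela A, a difference of 0.06 (95% interval -0.21 to 0.33, limma adjusted p = 0.968). Both pairs of groups overlap, and the GLU15 difference became -0.04 without stable mutant replicate 1.

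GLU15 set Nipponbare apart from both other cultivars. Nipponbare seedlings had 8.43 and 8.16, against 4.56 and 4.60 in Bengal and 4.51 and 4.42 in Estrela A. The differences were 3.72 (13.1-fold) from Bengal and 3.83 (14.2-fold) from Estrela A, with no test. In the order of the 7 group means, the step of 3.56 between Nipponbare and the stable transgenic line was the only one without overlap, so neighbours within the upper pair and within the lower 5 groups do not differ beyond their spread. The low GLU15 values lie below the median of every array, and whether they exceed background was not tested. The probe set of GLU15 is of the kind that Affymetrix marks as sharing probes with other transcripts, and the array has no other for this gene.

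Between Estrela A and Bengal, 1 gene of the 4 had an unadjusted p under 0.05 in limma. The share of all genes at that threshold is not given, so this count is not read further. The gene was BC1L9. It was at 7.85 and 7.79 in Estrela A, against 8.69 and 9.83 in Bengal, a difference of -1.44 (SE 0.421, 95% interval -2.36 to -0.52, 2.71-fold lower, limma adjusted p = 0.0541). None of the 4 passed the adjusted test here, beside 14.5% of all genes. With 1 array left out, the BC1L9 difference ranged from -2.01 to -0.87. On the second probe set of BC1L9 it was -1.27 (limma adjusted p = 0.115). BC1L6 differed by -0.40 (95% interval -0.83 to 0.04, limma adjusted p = 0.303), GLU11 by 0.08 (adjusted p = 0.809) and GLU15 by -0.12 (adjusted p = 0.713). The arrays of all 4 genes were without overlap between Estrela A and Bengal, as were 60.2% of all genes.

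Nipponbare was lower than Bengal by 0.42 in BC1L6 and by 1.24 in BC1L9, and higher by 0.14 in GLU11, in each case without overlap, as in 73.5% of all genes. From Estrela A it differed little in these 3 genes, by -0.02, 0.20 and 0.06 for BC1L6, BC1L9 and GLU11. The BC1L9 value was -0.10 on the second probe set.

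The span of the group means includes the unstable transgenic level by which BC1L6, BC1L9 and GLU11 were picked, and is given as a description. For GLU15 the group means spanned 3.84 log2 units with a mean within-group SD of 0.104, for GLU11 1.64 with 0.084, for BC1L6 2.41 with 0.181, and for BC1L9 4.22 with 0.423. In the order of the means, BC1L6 was highest in the unstable transgenic line, then the stable transgenic line, Bengal, the stable mutant, Estrela A, Nipponbare and the unstable mutant. The neighbours from Bengal down to Nipponbare overlapped. GLU11 ran from the unstable transgenic line through the stable mutant, the stable transgenic line, Nipponbare, Estrela A and Bengal to the unstable mutant, and only Nipponbare and Estrela A overlapped. BC1L9 ran from the unstable transgenic line through Bengal and the stable transgenic line, which overlapped, to Nipponbare, Estrela A, the stable mutant and the unstable mutant.

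Over the 14 arrays, the levels of BC1L6 and BC1L9 went together (r = 0.899), and so did BC1L6 and GLU11 (r = 0.851). These values describe arrays that share groups and cultivars, and they carry no test. Without the unstable mutant arrays they were 0.866 and 0.816, and without the unstable transgenic arrays 0.784 and 0.536. The correlation of BC1L9 with GLU11 was 0.69 over all arrays and 0.196 without the unstable transgenic line. The correlations of GLU15 with BC1L6, BC1L9 and GLU11 were 0.479, 0.49 and 0.581. They were 0.41, 0.426 and 0.536 without the unstable mutant arrays, and between -0.082 and 0.059 without the unstable transgenic arrays. By Spearman's rho over all arrays they were 0.572, 0.642 and 0.477. That measure gave 0.828 for BC1L6 with BC1L9, 0.669 for BC1L6 with GLU11 and 0.451 for BC1L9 with GLU11.

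Among 1462 named genes of medium or high level, those nearest in pattern to BC1L6 were OsPP2C40, a type 2C protein phosphatase (r = 0.912 over 14 arrays), EREBP-1, an ethylene response factor (0.911), GRXS9, a glutaredoxin (0.909), JAZ11, a jasmonate signalling repressor (0.895) and ERG3 (0.884). Nearest to BC1L9 were HMG3, named for an enzyme of isoprenoid synthesis (0.944), EREBP-1 (0.935), GRXS9 (0.924), CPK1, a calcium-dependent kinase (0.918) and ERG3 (0.916). EREBP-1, GRXS9 and ERG3 are on both lists. For GLU11 they were OsSAPK2, a kinase of abscisic acid signalling (0.87), OsPP2C40 (0.856), PCF2 (0.854), GT2 (0.843) and OsTLP1 (0.843). All genes on these lists had their highest group mean in the unstable transgenic line, by which BC1L6, BC1L9 and GLU11 were picked. The lists thus follow in part from that choice. Correlations without the unstable transgenic arrays are not given, and the lists are a description with no test.

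GLU15 was nearest to CESA1, a catalytic subunit of the cellulose synthase of growing walls (r = 0.982, and 0.982 without the unstable mutant arrays). CESA1 was at 11.06 and 11.24 in the unstable mutant and 12.38 and 12.50 in the unstable transgenic line, against 12.36 and 12.31 in Nipponbare. The next were rgp2 (0.978), IPP (0.969), Os-UGD4, named for the enzyme that makes UDP-glucuronic acid (0.968) and KIN14H, a kinesin (0.965).

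The other genes named for these families numbered 14, and 11 were on the array: the COBRA-like genes BC1 and BC1L2 and the endoglucanase genes GLU1, GLU2, GLU5, GLU6, GLU8, GLU10, GLU12, GLU13 and GLU14. BC1L7, which is the direct neighbour of BC1L6 in gene order, had no probe set. In the unstable transgenic line, 3 of the 11 rose and none fell in limma, with a median difference of 0.23 beside 0.025 over all genes, of which 9.21% rose. BC1L2, the direct neighbour of BC1 in gene order, was at 6.92 and 7.20 in this line, against 6.20 and 6.47 in Nipponbare (difference 0.72, SE 0.188, 1.65-fold, adjusted p = 0.039). GLU1, whose loss gives dwarf rice plants with less cellulose, was at 11.11 and 10.89 in this line, against 10.18 and 10.21 in Nipponbare (difference 0.80, SE 0.120, 1.75-fold, adjusted p = 0.00263). GLU10 was at 8.89 and 8.38, against 8.05 and 7.97 in Nipponbare (difference 0.62, 1.54-fold, adjusted p = 0.0444).

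The rises of BC1L2 and GLU10 did not hold under every choice of arrays. The count was 1, GLU1 alone, without unstable transgenic replicate 1, without Nipponbare replicate 1 and without both unstable mutant arrays. It was 0 with only the 4 arrays compared, where GLU1 had an adjusted p of 0.0956. Leaving out replicate 2 of the unstable transgenic line removed BC1L2 (adjusted p = 0.176), and leaving out replicate 2 of Nipponbare removed GLU10 (adjusted p = 0.106). BC1 itself was at 9.75 and 10.03 in the unstable transgenic line, against 9.79 and 9.67 in Nipponbare, with overlapping groups and a difference of 0.16 (limma adjusted p = 0.437). GLU2 was at 12.38 and 12.48, against 12.28 and 12.26 in Nipponbare (limma adjusted p = 0.345).

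In the unstable mutant, 5 of the 11 family genes fell and none rose, with a median difference of -0.56 beside 0.005 over all genes, of which 18.9% fell. GLU6 was at 4.58 on both unstable mutant arrays, against 6.83 and 7.79 in Nipponbare (difference -2.73, SE 0.332, 6.63-fold lower, limma adjusted p = 0.000136). GLU5, also known as OsCel9A, was at 5.05 and 5.64, against 8.04 and 8.08 in Nipponbare (difference -2.71, SE 0.294, 6.57-fold lower, limma adjusted p = 6.05e-05). BC1 was at 8.14 and 8.09, against 9.79 and 9.67 in Nipponbare (difference -1.61, SE 0.114, 3.06-fold lower, limma adjusted p = 3.11e-06). In all 3 genes the arrays of the mutant were far below those of the control.

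GLU10 (difference -0.70, limma adjusted p = 0.00987) and GLU14 (-0.56, adjusted p = 0.0403) were the other members of the family that fell. Both lost the call without unstable mutant replicate 1, at adjusted p of 0.0561 and 0.165, which left 3 genes. GLU10 also lost it without Nipponbare replicate 1 (0.0563), and GLU14 without unstable mutant replicate 2 (0.103) and without Nipponbare replicate 2 (0.249). The GLU14 levels, 4.29 and 4.35 in the unstable mutant against 4.64 and 5.12 in Nipponbare, lay below the median of every array. Whether they exceed background was not tested. Against the unstable transgenic line, 9 of the 11 were lower in the unstable mutant, with a median of -1.03 beside 27.9% of all genes lower, and 7 to 8 were lower with any 1 array left out.

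GLU5, GLU6 and BC1, singled out after their values were seen, shared with GLU15 a high level in Nipponbare and the unstable transgenic line. Their differences of Nipponbare from Bengal were 2.31 for GLU5, 2.48 for GLU6 and 1.80 for BC1, and those from Estrela A were 1.32, 2.41 and 1.52. As these genes were picked for this pattern, the differences are given without a test. In the family as a whole, 4 of 11 genes were higher and 3 lower in Nipponbare than in Bengal, where 39.1% of all genes passed in either direction. Without Bengal replicate 1, 4 genes passed, with GLU1, GLU10 and GLU13 lost. Against Estrela A, 4 were higher and 2 lower, where 37.2% of all genes passed.

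**Figure D3:**
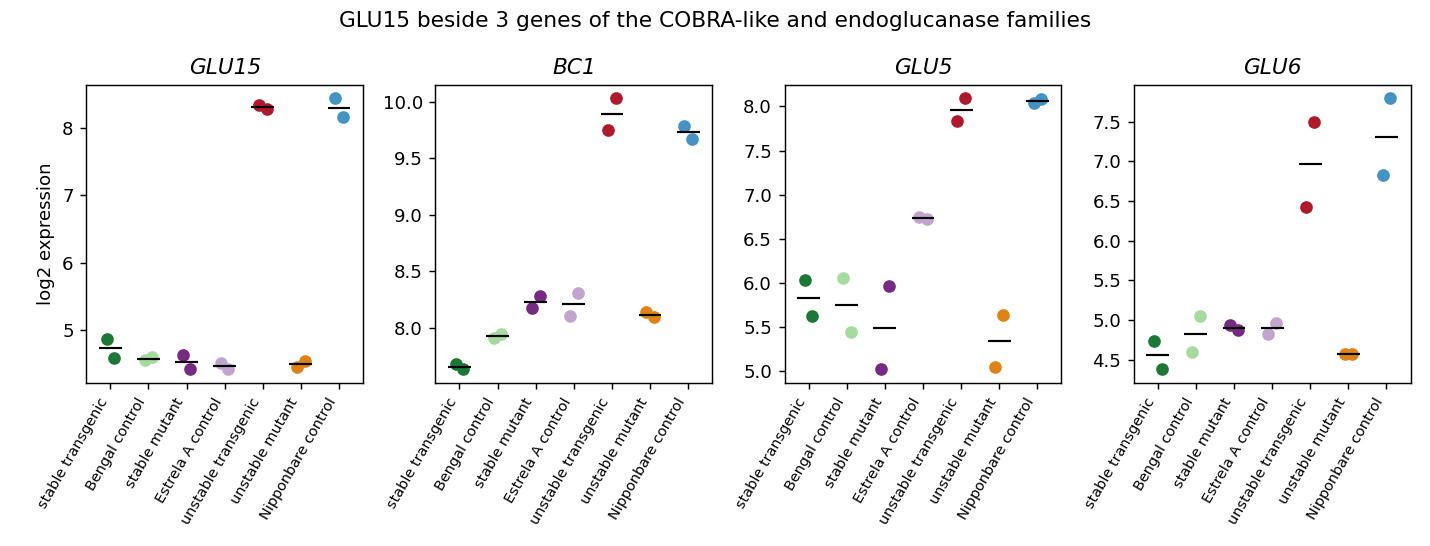
Log2 expression (y axis) of GLU15, BC1, GLU5 and GLU6 on each array, by group (x axis); points are single arrays and lines are group means, and each panel has its own scale. The unstable transgenic and Nipponbare arrays are the highest of each panel, and the unstable mutant arrays lie among those of the Bengal and Estrela A groups.

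Most markers of the root moved with this pattern. Of the 9 root markers on the array, 6 fell in the unstable mutant against Nipponbare, with a median of -1.80, beside 18.9% of all genes that fell. In Nipponbare 6 were higher than in Bengal, where 39.1% of all genes passed in either direction. Their log2 summed level was 13.38 and 13.70 in the unstable mutant and 14.86 and 14.39 in the unstable transgenic line, against 14.65 and 14.76 in Nipponbare. It lay between 13.21 and 13.94 in the Bengal and Estrela A groups. Against Nipponbare, 1 root marker rose and 1 fell in the unstable transgenic line, where 9.21% of all genes rose. Of the 9, 5 lay wholly below the Nipponbare arrays there and 2 wholly above, with a median of -0.41. Over all genes, 34.0% lay wholly above. The shares of all genes that fell or lay wholly below in this line are not given. Not all root markers moved alike: PHT1-2 was at 8.98 and 8.63 in the unstable mutant, against 8.68 and 8.61 in Nipponbare. NAS1, which is part of the sum, varied between pools, at 6.65 and 11.76 in the unstable mutant and 10.43 and 5.54 in the stable transgenic line. The leaf markers had summed levels of 15.66 to 15.95 on all 14 arrays, but single leaf markers differed. In the unstable mutant against Nipponbare, 2 of 5 rose and 1 fell, with differences from -0.455 to 1.06. Of all genes, 19.1% rose and 18.9% fell there. In Nipponbare against Bengal, 2 leaf markers were higher and 1 lower, where 39.1% of all genes passed in either direction. The part of the root markers in the GLU15, GLU5, GLU6 and BC1 values was not tested.

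No family gene passed in the stable transgenic line, in the stable mutant or between Estrela A and Bengal, where 0.212%, 0.19% and 14.5% of all genes passed. Counts in limma at an unadjusted p under 0.05 are given without a share of all genes. At that threshold stood 1 of 11 genes in the stable transgenic line, 3 in the stable mutant and 4 between Estrela A and Bengal. The widest of these in a line was GLU5, at 5.02 and 5.96 in the stable mutant against 6.75 and 6.72 in Estrela A (difference -1.25, limma adjusted p = 0.263). Between Estrela A and Bengal the count was 1 without either Estrela A replicate and 2 with only the 4 arrays compared.

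Cellulose synthases (CESA), cellulose synthase-like genes (CSL) and the xyloglucan-modifying XTH8 made up a list of 30 wall genes on the array. In the unstable transgenic line, 5 of the 30 rose and none fell, with a median of 0.135, beside 9.21% of all genes that rose and a median over all genes of 0.025. The widest 4 were CSLC9 (0.96, limma adjusted p = 0.0073) and CSLC7 (0.78, 0.0304), of a family known for the xyloglucan backbone, CSLA9 (0.86, 0.0158), of the mannan synthase family, and CSLD2 (0.84, 0.00539). CESA6, at 12.57 and 12.20 in this line against 11.62 and 11.79 in Nipponbare, was the only one of 9 cellulose synthases to rise (0.68, 1.60-fold, adjusted p = 0.0472). All 5 calls were lost without unstable transgenic replicate 1, where the count was 0, and CSLD2 alone was left without Nipponbare replicate 1. CSLA9 was also lost without unstable transgenic replicate 2 (adjusted p = 0.0571), and CESA6 without Nipponbare replicate 2 (adjusted p = 0.0609).

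In the unstable mutant, 19 of the 30 wall genes fell and 3 rose, with a median of -0.48, where 18.9% of all genes fell and 19.1% rose. All 9 cellulose synthases passed: 8 fell, and CESA2 rose (0.71, 1.64-fold, adjusted p = 0.0318). The rise of CESA2 was not called without either unstable mutant replicate or without Nipponbare replicate 1, and the fall of CESA9 not without unstable mutant replicate 2 or Nipponbare replicate 1. CESA6 was at 9.52 and 9.97 in the unstable mutant, against 11.62 and 11.79 in Nipponbare (difference -1.96, 3.89-fold lower, limma adjusted p = 2.45e-05). CSLF8, of a family that makes the mixed-linkage glucan of grass walls, was at 5.46 and 5.48, against 7.43 and 7.38 in Nipponbare (difference -1.94, 3.82-fold lower, limma adjusted p = 8.72e-07). CSLC3 differed by -1.68 (adjusted p = 0.0048) and CESA5 by -1.26 (adjusted p = 4.73e-05), and the other rises were CSLH1 (0.44, adjusted p = 0.0101) and CSLE1 (0.42, adjusted p = 0.0211), the second of which was lost without unstable mutant replicate 1 or Nipponbare replicate 2. In all, 14 of the 22 calls stood without unstable mutant replicate 1.

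Of the cellulose synthases, 7 of 9 were higher in Nipponbare than in Bengal and none was lower, where 39.1% of all genes passed in either direction. CESA4 and CESA7 were not called there without Nipponbare replicate 1, nor CESA4 without Bengal replicate 1 or CESA7 without Bengal replicate 2. CESA1, the gene nearest to GLU15, was 2.32-fold higher in Nipponbare than in Bengal and 2.14-fold higher than in Estrela A. As CESA1 was singled out by its likeness to GLU15 over these same arrays, these values are given without a test. Against the unstable transgenic line, 21 of the 30 wall genes were lower and 3 higher in the unstable mutant, where 27.9% of all genes were lower and 22.5% higher. In limma none of the 30 passed in the stable transgenic line or the stable mutant, where 0.212% and 0.19% of all genes passed. An unadjusted p under 0.05 was found in 6 and 3 of the 30, with no share of all genes at that threshold given.

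**Figure D4:**
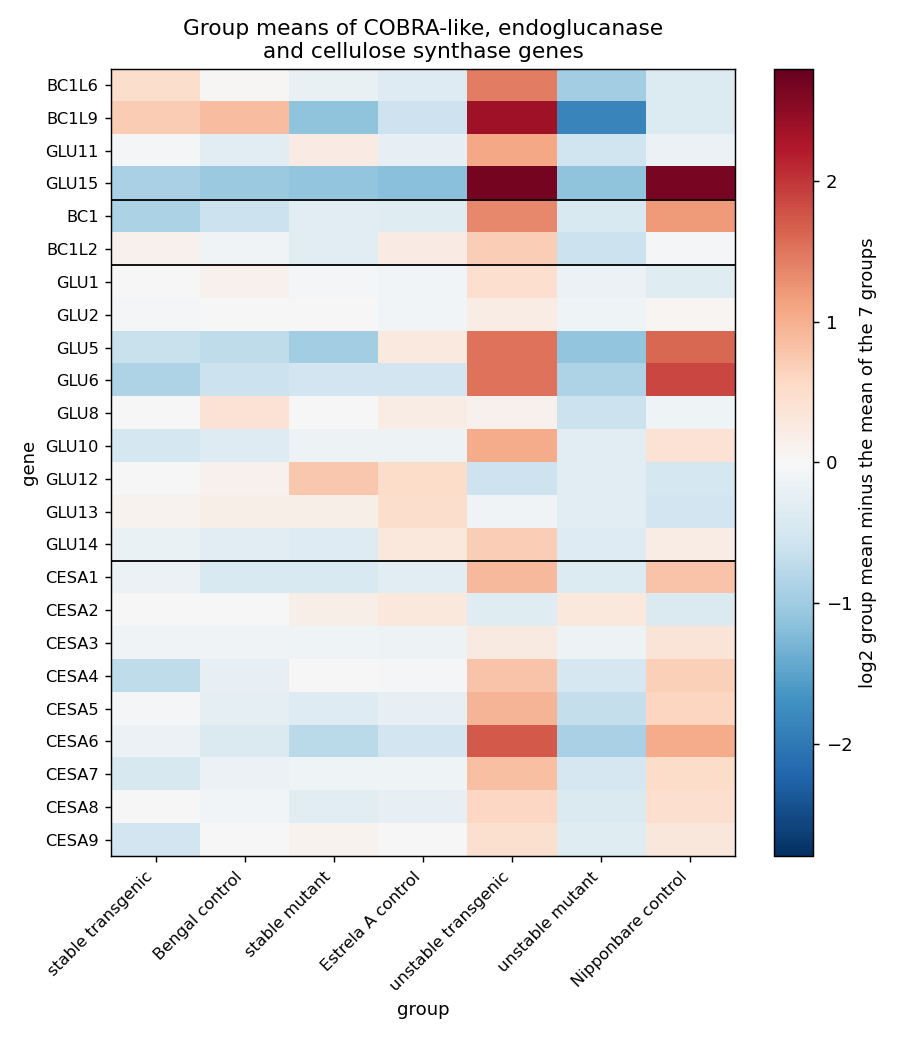
Group means of the 4 genes, their families and the cellulose synthases (rows) in the 7 groups (columns), as log2 difference from the mean of the 7 groups for that gene; red is above and blue below it. GLU15, BC1, GLU5, GLU6 and most cellulose synthases are red in the unstable transgenic line and Nipponbare, whereas BC1L6, BC1L9 and GLU11 are red in the unstable transgenic line and pale blue in Nipponbare.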

How the data were processed

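The deposited table holds log2 expression per probe set. Per the labels' design text, the authors ran Partek Genomics Suite, whose Robust Multichip Average step corrected background, equalised the distributions of all arrays, took log2 and summarised by median polish. Software versions: not given in the sources used here. All 14 columns were used with no further normalization. Replicate 1 of a group has a number in its title and replicate 2 has none. Of 57381 probe sets, 187 controls were left out. Of the 57194 tested, 22436 matched 1 gene, 95 several and 34663 none, in a gene table of assembly ASM3414082v1 that served for names and gene order only. The highest probe set by mean stood for each of 17905 genes.

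Differences were fitted with limma 3.58.1 (R 4.3.3), 1 mean per group over all 14 arrays, with 7 residual and 4.57 prior degrees of freedom. P-values were two-sided and Benjamini-Hochberg adjusted over all tested probe sets, with calls at an adjusted p under 0.05. They rest on the spread between the 2 pools of each group, taken over all 7 groups as 1 moderated value per probe set. An SE or interval can thus be wider or narrower than the replicates of its own 2 groups alone would give. The number of arrays limits precision. The fit was tested on simulated data.

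The 4 genes and all lists were chosen with earlier results of these data known. Family and wall genes were matched by symbol patterns, since no protein table was used here. A bHLH factor also named BC1 was left out of the family. Wall regulator patterns matched 0 genes, and SLL1 had no probe set. Named were the 4 genes, called family genes (up to 6 per line comparison) with the highest by mean of each family, up to 4 called wall genes per line comparison and direction, with CESA6 in the unstable transgenic line and CESA1 beyond this rule, and for each of the 4 genes the 5 nearest by Pearson correlation. That last rule asked for a symbol, which 82 genes have, so after the table was seen it was widened to symbol or synonym (2429 genes). Other choices made after seeing the data were counting the bHLH factor, the window of 10 neighbouring genes on each side, the comparison with cultivar-dependent probe sets and leaving out both unstable mutant arrays. Same-numbered replicates did not deviate together (r between -0.117 and 0.112), and only 1 number stands in the labels.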

Additional observations from a re-analysis of the deposited data

Results flagged for a closer look

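GLU11 lay on opposite sides of the controls in the mutant lines. Both stable mutant arrays were above both Estrela A arrays, with a difference of 0.46, and both unstable mutant arrays were below both Nipponbare arrays, with a difference of -0.38. The difference between these differences was not tested, and the limma adjusted p in the stable mutant was 0.349.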

How the results depend on the processing

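The number of arrays limits every value, and signal over background was not tested. BC1L9 in the stable transgenic line was 0.47 and 0.44 without replicate 2 of the line or of Bengal (range over arrays left out -0.74 to 0.47), and GLU15 in the stable mutant was -0.04 without mutant replicate 1 (-0.04 to 0.16). BC1L9 between Estrela A and Bengal passed at -1.44 with only the arrays compared (adjusted p = 0.0409) and with a filter on dim probe sets (0.0455, fewer probe sets tested), and leaving out an array gave -2.01 to -0.87. With the replicate number as a block the family count against Nipponbare was 2 for the unstable transgenic line and 6 for the unstable mutant, and the block changed no call among the 4 genes. Family counts in the unstable transgenic line (3) were 1 with no variance moderation or without both unstable mutant arrays, 0 with only the arrays compared, 0 at a fold of at least 2 and 1 to 3 with an array left out. In the unstable mutant (5) they were 3 at a fold of at least 2 and 3 to 4 with an array left out. Between Estrela A and Bengal (0) they were 2 with only the arrays compared, 1 with the dim filter and 0 to 1 with an array left out, and between Nipponbare and Bengal (7) 3 at a fold of at least 2 and 4 to 7 (4 without Bengal replicate 1). Wall gene counts in the unstable transgenic line (5) were 2 with no moderation, 0 with only the arrays compared, 0 at a fold of at least 2 and 0 to 4 with an array left out. In the unstable mutant against Nipponbare (22) they were 14 with only the arrays compared, 9 at a fold of at least 2 and 14 to 17, and against the unstable transgenic line (24) 13 at a fold of at least 2 and 19 to 21. Between Estrela A and Bengal (4) they were 1 at a fold of at least 2 and 1 to 3, between Nipponbare and Bengal (13) 4 at a fold of at least 2 and 11 to 14, and between Nipponbare and Estrela A (14) 4 at a fold of at least 2 and 9 to 15 (9 without Estrela A replicate 1). A fold of at least 2 removes smaller differences and leaving arrays out removes samples by construction; the cause of the other changes was not tested. After cyclic loess the small differences of Nipponbare were 0.24 for GLU11 from Bengal, and 0.06 for BC1L6 and 0.19 for GLU11 from Estrela A. Counting the bHLH factor named BC1 gave 4 family genes in the unstable transgenic line, 10 between the unstable lines and 7 between Nipponbare and Estrela A. Leaving out probe sets that share probes removes GLU15, so no value was computed.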

Other observations

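Genes next to the 4 in gene order, 10 with a probe set on each side, were read as a description, chosen after seeing the data. Near GLU11, the gene LOC4346960, the fifth to one side, was at 11.76 on average in the stable mutant, against 3.58 in Estrela A, a difference of 8.18 (limma adjusted p = 1.75e-10). LOC4346954, 2 places further out, was at 4.06 in the stable mutant, against 5.18 in Estrela A (-1.13, limma adjusted p = 0.0222). The other 18 neighbours did not pass, where 0.19% of all genes passed. Beside GLU15, the adjoining genes LOC4345461 and LOC4345464 differed by -0.20 and -0.22 between the unstable mutant and Nipponbare, where GLU15 differed by -3.80. Of the 20 neighbours of GLU15, 3 were higher and 5 lower there in limma, beside 19.1% of all genes higher and 18.9% lower. The differences of the 20 lay between -1.06 and 1.12.

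XTH8, a xyloglucan-modifying enzyme gene, was at 9.76 and 9.53 in Estrela A, against 11.88 and 11.85 in Bengal, a difference of -2.22 (4.66-fold lower, limma adjusted p = 1.51e-08). It was at 9.81 and 9.80 in the stable mutant, and at 11.75 or above on every array of the other groups. Of the 30 wall genes it had the widest difference between these cultivars. In all 4 of the 30 passed, where 14.5% of all genes did, and the count was 1 to 3 with an array left out.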
